A study of Mus musculus with 3 samples.

Results

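The PAM ChIRP-seq odd pool contained 344 regions outside protein-coding genes, of 2112 regions in all (16.3%, 95% Wilson interval 14.8 to 17.9). A region was counted here when its midpoint lay within the start-to-end span of no protein-coding gene of GENCODE M1, the annotation of mouse genome build mm9, and the remaining 1768 regions lay in such a gene. Of the 344 regions, 77 had their midpoint in a pseudogene, 25 in a noncoding gene and 242 in no annotated gene. Intervals on shares are 95% Wilson intervals and intervals on differences are Newcombe intervals, and both cover counting error only.

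ChIRP-seq (chromatin isolation by RNA purification) captures the chromatin crosslinked to an RNA with biotinylated antisense probes and sequences the DNA recovered with it. PAM (Gm12603) is a noncoding RNA transcribed from a super-enhancer. The experiment asked where on the genome it is found in ASCs, the activated satellite cells of skeletal muscle. In the study, satellite cells were sorted from hindlimb muscle of Tg:Pax7-nGFP mice, whose satellite cells carry a nuclear green fluorescent reporter under Pax7. ASCs are such cells after culture, and the culture time for this experiment is not given in the sources used here. Probes were split into an odd and an even pool, each hybridized separately at 100 pmol and 37 °C for 4 h to lysate of cells crosslinked with 1% glutaraldehyde for 10 min, and no treatment was given. Each pool is 1 library, so there is no replicate error and no value below carries a test. The input library was not analysed here, so the level of each region in unselected chromatin is not known. The lists hold no expression values, so the identity of the cells was not checked against markers. What the deposited region score measures is not given in the sources used here. Scores in both lists are integers from 4 upwards, and they serve only to rank regions within a list. The lists hold no read counts, so the depth is unknown.

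A pseudogene is a nonfunctional relative of a gene. Many arose when a spliced mRNA was copied back into the genome by reverse transcription, so such a processed copy lacks the introns of its parent gene and its exons lie side by side. Long noncoding RNAs are transcripts without a protein product, and several of them, among them Malat1 and Neat1, are abundant in the nucleus. Simple tandem repeats are short units of bases repeated head to tail and are scattered through the mouse genome.

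The 3 odd-numbered probes, whose sequences decide what the pool can hybridize to, were as follows.
PAM probe 1: gccagaaagaatggatgact
PAM probe 3: acctgccatctgctatcaaa
PAM probe 5: acaagtacttcagctccatg
The longest exact run that a region outside genes shared with any odd-numbered probe, on either strand, had a median of 7 bases and a maximum of 11 of the 20 bases. In regions within protein-coding genes the median was also 7 and the maximum 13. With all 6 probes, the median over regions outside genes was 7 and the maximum 13.

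By sequence, the 344 regions were divided into 4 classes, taken in the order given, after their values had been seen. Low-complexity regions, with at least 50% of their bases masked by the dustmasker program, numbered 110. Copies of a spliced mRNA, matching a protein-coding transcript at 90% identity or more over at least 49.2% of a region's length and across at least 1 exon junction, numbered 118. A further 21 regions in no gene lay within 5000 bp past the 3' end of a protein-coding gene, and 95 regions remained.

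**Figure D1:**
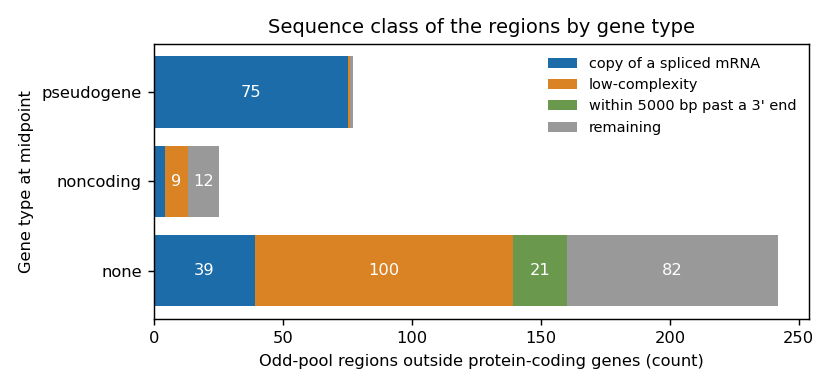
Number of odd-pool regions outside protein-coding genes (x axis) by the gene type at the midpoint (y axis), coloured by sequence class. Copies of a spliced mRNA made up 75 of the 77 regions in pseudogenes, and low-complexity sequence made up 100 of the 242 regions in no gene.

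The regions in noncoding genes held the highest score outside protein-coding genes. H19, an imprinted noncoding RNA that is abundant in embryonic tissue and in skeletal muscle, held 2 regions, both on its exons. The region at chr7:149761797-149762050 had a score of 68 in the odd pool and shared 205 bp with an even-pool region of score 26. The region at chr7:149763071-149763324 had a score of 60 and shared 161 bp with an even-pool region of score 19. Their sequences on the plus strand of mm9 are shown because both pools listed them, with the bases inside the even-pool region in capitals.
H19 chr7:149761797-149762050: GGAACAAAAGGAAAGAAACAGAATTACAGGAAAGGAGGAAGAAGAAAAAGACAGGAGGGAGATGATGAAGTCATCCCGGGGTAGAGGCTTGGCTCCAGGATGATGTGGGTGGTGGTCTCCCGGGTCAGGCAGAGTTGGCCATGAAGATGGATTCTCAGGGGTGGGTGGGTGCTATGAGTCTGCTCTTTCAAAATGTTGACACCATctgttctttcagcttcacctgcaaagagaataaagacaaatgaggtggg
H19 chr7:149763071-149763324: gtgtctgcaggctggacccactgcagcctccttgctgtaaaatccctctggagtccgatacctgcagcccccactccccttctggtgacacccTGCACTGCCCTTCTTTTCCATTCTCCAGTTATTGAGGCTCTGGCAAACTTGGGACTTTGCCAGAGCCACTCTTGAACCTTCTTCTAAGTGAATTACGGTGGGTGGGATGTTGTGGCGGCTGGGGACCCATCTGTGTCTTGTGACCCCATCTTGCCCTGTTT
The median 31-mer of each of these regions occurred 1 time in mm9, so they were not repeated sequence.

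Other nuclear noncoding RNAs held regions of lower score and no overlapping even-pool region. Malat1 held 1 region with a score of 13, at chr19:5802053-5802306. Neat1, the scaffold RNA of nuclear paraspeckles, held 2 regions with scores of 11 and 10. One region with a score of 13 lay where Xist, the RNA that silences an X chromosome, overlaps its antisense partner Tsix, at chrX:100655872-100656125, and the lists carry no strand with which to tell the pair apart. All 4 of these regions lay on annotated exons.

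PAM itself held no odd-pool region. The nearest region outside genes on chromosome 4 lay 2742 kb from PAM, at chr4:91472232-91472485, with a score of 5. Meg3, Rian, Mirg, Gas5, Snhg1 and Snhg12 also held 0 regions. Gm10800 and Gm10801 are protein-coding in GENCODE M1, so they could hold none by the rule. Rmrp, Rn45s and Rn7sk are not in GENCODE M1, so no region could be given their names. A region at their loci would be counted by what GENCODE M1 has there, for example as in no gene, and their 0 is not an absence of regions. No noncoding gene or pseudogene held more than 2 regions.

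Among the 8 highest-scoring regions in noncoding genes, 3 were copies of mRNAs. 1700030G06Rik held 2 regions, with scores of 17 and 15, that matched Pkm2, the muscle pyruvate kinase of glycolysis, at 98.0% and 99.2% identity. Gm13826 held a region with a score of 13, overlapped by an even-pool region of score 5, that matched the ribosomal protein gene Rpl37 at 99.6%. Over all 25 regions in noncoding genes the score had a median of 7 (interval 4 to 11) and ranged from 4 to 68. An even-pool region overlapped 5 of the 25 (20%, 8.86 to 39.1). Over all odd-pool regions this share was 6.96%.

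The 2 regions of highest score in no annotated gene lay close together on chromosome 17. The region at chr17:39984614-39984867 had a score of 63 and an even-pool region of score 68, and the region at chr17:39983446-39983699 had a score of 47 and an even-pool region of score 34. The nearer of them ended 180 bp before AY036118, a pseudogene in GENCODE M1. In the gene table of RefSeq, which uses a later build, the gene next to AY036118 is Rn18s-rs5, a related sequence of the 18S ribosomal RNA. The top region, named here as ribosomal sequence, is printed with the bases inside the even-pool region in capitals. It was not aligned to a reference ribosomal RNA.
chr17:39984614-39984867: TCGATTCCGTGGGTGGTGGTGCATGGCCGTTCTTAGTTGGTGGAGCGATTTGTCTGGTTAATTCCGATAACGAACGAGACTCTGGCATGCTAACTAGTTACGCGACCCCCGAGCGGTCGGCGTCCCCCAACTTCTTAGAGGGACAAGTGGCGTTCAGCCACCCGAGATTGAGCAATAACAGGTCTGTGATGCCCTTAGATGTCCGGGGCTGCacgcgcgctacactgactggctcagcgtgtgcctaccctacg
A region on chromosome 6, at chr6:3151363-3151616, with a score of 5 and an even-pool region of score 14, matched chr17:39984219-39984467 at 96.8% identity over 249 bp. Another region in no gene, at chr11:108872929-108873182, had a score of 14 and an even-pool region of score 28.

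The regions in pseudogenes were almost all copies of spliced mRNAs. Of the 77, 75 matched a transcript across an exon junction, 1 was low-complexity and 1 remained. The highest score, 32, was in Gm13456, a copy of Eef1a1, the elongation factor that brings aminoacyl-tRNA to the ribosome, at 99.2% identity over the whole region, and the even-pool region there had a score of 11. Gm14456, a copy of Tpt1, the translationally controlled tumour protein gene, had a score of 25 and an even-pool score of 14, at 100% identity. Gm13050, a copy of Eef2, the elongation factor of ribosomal translocation, had scores of 19 and 7 in the odd and the even pool. Eif4a-ps4, a copy of the RNA helicase gene Eif4a1 at 100% identity, held 2 regions, with odd-pool scores of 18 and 14, and only the region of score 14 overlapped an even-pool region, of score 5. Among the 8 highest in pseudogenes were also Rpl10a-ps1 (Rpl10a, odd 15, even 7), Gm6863 (Naca, odd 15, even 5) and the overlapping pair Gm15459 and Gm17431 (Hspa8, odd 14, even 6). Of these 8 regions, 7 overlapped an even-pool region, though ties in score had been broken in favour of overlap, and of all 77 pseudogene regions 8 did (10.4%, 5.36 to 19.2).

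The same kind of sequence was found in regions with no annotated gene, where 39 of 242 were spliced copies. The region at chr6:66825524-66825777, a copy of the ribosomal protein gene Rpl23 at 100% identity over 241 bp, had a score of 32 and an even-pool region of score 10. Copies of Rpl4 on chromosome 1 gave 2 regions, at chr1:144990054-144990307 with a score of 27 and chr1:144990786-144991039 with a score of 17, and neither overlapped an even-pool region. A copy of Rps9, at chr7:148364013-148364266, had a score of 18 and an even-pool score of 5. The sequences below show how such a region carries exons without introns. Capitals mark 3 bases on each side of every point where 2 exons of the parent transcript meet, and each sequence is the plus strand of mm9.
Gm13456 (Eef1a1) chr2:40411443-40411696: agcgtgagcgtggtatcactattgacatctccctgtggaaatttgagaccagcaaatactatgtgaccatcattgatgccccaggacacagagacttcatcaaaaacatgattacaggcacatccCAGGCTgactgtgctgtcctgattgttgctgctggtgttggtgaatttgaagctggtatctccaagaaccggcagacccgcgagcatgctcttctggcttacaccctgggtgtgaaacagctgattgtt
Gm14456 (Tpt1) chr6:99827860-99828113: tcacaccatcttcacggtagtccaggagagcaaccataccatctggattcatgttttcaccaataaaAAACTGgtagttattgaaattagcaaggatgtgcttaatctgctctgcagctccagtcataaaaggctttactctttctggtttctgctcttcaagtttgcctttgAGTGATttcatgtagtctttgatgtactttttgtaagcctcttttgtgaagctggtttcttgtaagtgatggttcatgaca
Eif4a-ps4 (Eif4a1) chr1:60761665-60761918: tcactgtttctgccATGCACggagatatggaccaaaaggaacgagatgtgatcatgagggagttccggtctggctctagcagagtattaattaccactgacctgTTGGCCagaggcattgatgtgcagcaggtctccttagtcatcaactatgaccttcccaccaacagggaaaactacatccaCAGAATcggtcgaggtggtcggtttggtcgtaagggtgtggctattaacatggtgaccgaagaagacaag
no gene (Rpl23) chr6:66825524-66825777: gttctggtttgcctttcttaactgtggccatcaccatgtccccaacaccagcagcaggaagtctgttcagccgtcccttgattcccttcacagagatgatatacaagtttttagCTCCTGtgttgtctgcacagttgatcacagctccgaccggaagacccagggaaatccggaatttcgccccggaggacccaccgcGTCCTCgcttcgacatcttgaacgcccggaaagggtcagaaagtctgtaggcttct
no gene (Rpl4) chr1:144990054-144990307: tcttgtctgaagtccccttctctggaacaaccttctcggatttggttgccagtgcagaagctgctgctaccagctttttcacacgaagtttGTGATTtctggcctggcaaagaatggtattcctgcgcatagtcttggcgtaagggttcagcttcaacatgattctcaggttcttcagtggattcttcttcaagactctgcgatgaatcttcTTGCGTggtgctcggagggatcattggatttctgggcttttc

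Over all 118 spliced copies the median identity to the best-matching transcript was 98.8%, and 89 copies had at least 97% identity. The matched stretch was coding in 114 of them. They came from 104 parent genes, of which 16 encode ribosomal proteins, and these accounted for 21 copies. One copy, at chr9:35112916-35113169, best matched Gm10718, a predicted gene, at 96.0% identity across 1 exon junction. Gm10718 held no odd-pool region, but another gene that this copy matched held one with a score of 67. Whether it is a processed copy of an mRNA was not tested. Of the 104 parents, 40 held an odd-pool region in their own span (38.5%), while 6.42% of all protein-coding genes did. In the 46 copies whose parent held a region, 27 scored below the parent's highest region, 2 equalled it and 17 scored above it. Eef2 had a highest score of 38 and its copy Gm13050 had 19. Eef1a1 had a highest score of 25 and its copy Gm13456 had 32. Reads from a parent and a near-identical copy can be hard to assign, and the part of such reads in these scores was not tested.

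**Figure D2:**
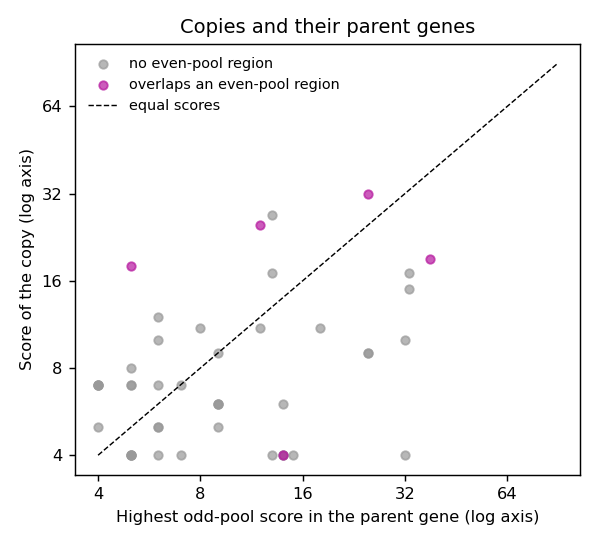
Score of each spliced copy (y axis, log) against the highest odd-pool score in its parent gene (x axis, log) for the 46 copies whose parent held a region, with purple points overlapping an even-pool region. Copies lie on both sides of the line of equal scores, 27 below it and 17 above.

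Low-complexity sequence was the most frequent class among the regions in no gene. It made up 110 of the 344 regions outside genes (32.0%, 27.3 to 37.1), 92 of the 1768 regions in genes (5.20%, 4.26 to 6.34) and 9.56% of all odd-pool regions. The difference between regions outside and in genes was 26.8 percentage points (21.9 to 32.0). The 110 regions had a median score of 5 (interval 4 to 6) and a highest score of 18. In the even pool, low-complexity sequence made up 21.2% of regions outside genes (14.4 to 30.0), 4.56% of those in genes and 9.57% of all.

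Exact tandem runs of 3 units were counted, each as an unbroken run of at least 18 bases in any phase and on either strand, and the units were chosen after the regions had been inspected. A run of GCCTCT was present in 61 regions outside genes (17.7%, 14.1 to 22.1), spread over 19 chromosomes, and in 55 regions in genes (3.11%, 2.40 to 4.03), which together made 5.49% of all odd-pool regions. In windows of mm9 as long as a region and outside protein-coding genes the share was 0.0452%. In the even pool, 0 of 345 regions had such a run, for which the Wilson interval reaches 1.10% and the limit that a count of 0 allows, taken as 3 counts of the total, is 0.870%. Outside genes alone, the even pool had 0 of 104 regions, and the odd pool exceeded it by 17.7 percentage points (12.6 to 22.1). The 61 regions had scores up to 11 with a median of 5 and a median GC content of 55.5%. An even-pool region overlapped 0 of them, and 6.96% of all odd-pool regions. As 0 even-pool regions held such a run, this overlap is largely not a separate result. The runs were not confined to the low-complexity class: 41 of the 95 remaining regions (43.2%, 33.7 to 53.2) held at least 1 of the 3 units, with GCCTCT in 21 and CA in 21.

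A run of CCTGCT showed the same pattern at lower numbers. It was present in 21 regions outside genes (6.10%, 4.03 to 9.15) and 9 in genes (0.509%, 0.268 to 0.965), or 1.42% of all odd-pool regions, and in 0.00438% of mm9 windows outside genes. Again 0 of 345 even-pool regions had a run. The highest score was 16, and the lincRNA gene D030054H15Rik held a region of this kind with a score of 10.

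A run of CA was common to both pools. It was present in 48 odd-pool regions outside genes (14.0%, 10.7 to 18.0) and in 3.88% of all odd-pool regions. In the even pool it was present in 32 of 104 regions outside genes (30.8%, 22.7 to 40.2), so the odd-pool share was 16.8 percentage points lower (difference -16.8, interval -26.8 to -7.80). In mm9 windows outside genes the share was 2.67%. Of the 48 regions, 8 overlapped an even-pool region. The 2 highest, both with a score of 18, were at chr10:91850902-91851155, with an even-pool score of 17, and at chr9:32162953-32163206, with an even-pool score of 10.

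One region of each kind is printed, the highest-scoring low-complexity region with at least 30% of its bases in the run (for CA, where 2 regions tied, the one with the longer even-pool overlap), with the runs in capitals. Each is the plus strand of mm9, where the unit happens to read as its reverse complement.
GCCTCT chr10:116478062-116478315: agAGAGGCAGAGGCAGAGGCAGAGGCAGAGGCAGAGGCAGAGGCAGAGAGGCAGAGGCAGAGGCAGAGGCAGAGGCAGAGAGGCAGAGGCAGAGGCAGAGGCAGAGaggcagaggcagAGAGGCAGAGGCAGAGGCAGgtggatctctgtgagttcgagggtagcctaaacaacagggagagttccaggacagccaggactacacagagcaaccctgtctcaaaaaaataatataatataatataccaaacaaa
CCTGCT chr15:79292151-79292404: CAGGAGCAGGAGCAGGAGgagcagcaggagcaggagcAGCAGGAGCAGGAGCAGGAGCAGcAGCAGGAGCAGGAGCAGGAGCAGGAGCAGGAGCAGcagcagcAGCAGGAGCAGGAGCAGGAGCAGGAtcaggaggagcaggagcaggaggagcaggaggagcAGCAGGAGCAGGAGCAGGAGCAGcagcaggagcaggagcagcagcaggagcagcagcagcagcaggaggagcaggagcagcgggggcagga
CA chr10:91850902-91851155: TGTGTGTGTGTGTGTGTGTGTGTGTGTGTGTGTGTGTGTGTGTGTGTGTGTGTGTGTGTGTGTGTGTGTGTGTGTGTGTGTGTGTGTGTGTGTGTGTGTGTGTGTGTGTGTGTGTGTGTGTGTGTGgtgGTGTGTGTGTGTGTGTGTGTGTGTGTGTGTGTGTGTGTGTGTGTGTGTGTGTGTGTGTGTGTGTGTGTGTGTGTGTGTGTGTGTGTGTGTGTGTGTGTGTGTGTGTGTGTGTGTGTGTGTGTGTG
The longest run shared with an odd-numbered probe had a median of 6 bases and a maximum of 8 in the 61 regions with GCCTCT, and the same in the 21 with CCTGCT. For the even-numbered probes the median and maximum were also 6 and 8 in both groups. Both pools differ in their probes and may differ in depth, and with 1 library each these cannot be told apart.

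**Figure D3:**
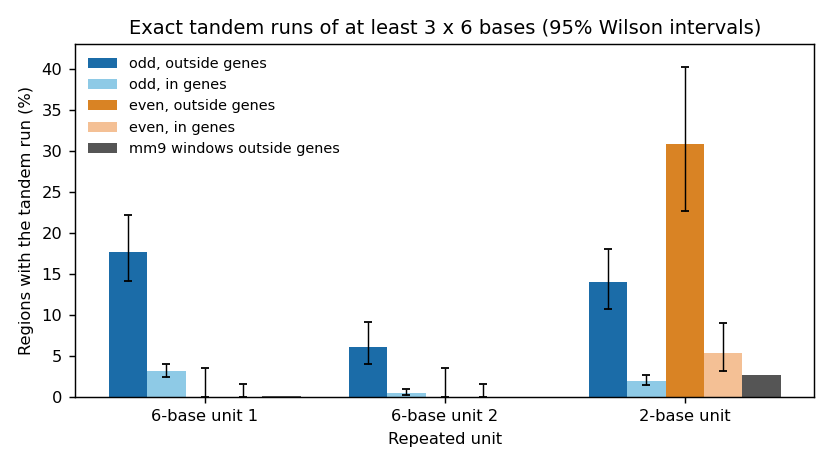
Share of regions (y axis, %) with an exact tandem run of GCCTCT (6-base unit 1), CCTGCT (6-base unit 2) or CA (2-base unit), for odd-pool and even-pool regions outside and in protein-coding genes and for mm9 windows outside genes, with 95% Wilson intervals on the 4 region groups. Both 6-base units were seen in the odd pool and in 0 even-pool regions, while CA was seen in 14.0% of odd-pool and 30.8% of even-pool regions outside genes.

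Repeated sequence was common outside genes. The median 31-mer occurred at least 2 times in mm9 in 167 of the 344 regions (48.5%, 43.3 to 53.8), in 10.3% of regions in genes and in 16.5% of all odd-pool regions. The difference between regions outside and in genes was 38.3 percentage points (32.8 to 43.7). The share depended on the definition: with 50-mers it was 28.2% outside genes and 4.13% in genes, and at 10 or more copies of the 31-mer 19.5% and 2.49%. By class the share was 76.4% in low-complexity regions, 60.2% in spliced copies, 4.76% past a 3' end and 11.6% in the remaining regions. In the even pool, the median 31-mer occurred at least 2 times in 35.6% of regions outside genes (27.0 to 45.1). There it was 12.4% in genes and 19.4% over all even-pool regions.

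A smaller group lay just past the annotated 3' ends of genes. Of all 344 regions, 39 lay within 5000 bp past a 3' end (11.3%, 8.41 to 15.1) and 38 within 5000 bp before a 5' start (11.0%, 8.15 to 14.8). Over all odd-pool regions these shares were 15.4% past a 3' end and 11.7% before a 5' start of any gene, so those outside genes were no higher. For regions in genes the end was that of another gene, so the whole list is not a like measure. The same distances past a 3' end and before a 5' start take up 5.03% and 5.38% of the bases outside genes. Both are below the shares of the regions there. The 21 regions of the class lay past 20 genes, at a median of 766 bp, with 15 of them within 1000 bp. The region nearest to an end lay 22 bp past Dag1, the dystroglycan of the muscle membrane, with a score of 9. The highest scores were 11, at 349 bp past Mmp14, a membrane-anchored matrix metalloproteinase, and at 1958 bp past Gdnf, a neurotrophic factor. The region past Gdnf also held a run of GCCTCT and was 45.3% low-complexity, and 3 of the 21 regions held a run of at least 1 of the 3 units. Fads2, a fatty acid desaturase, had 2 regions past its end, with scores of 7 and 6. Of the 20 genes, 3 (Dag1, Mmp14 and Mtdh) also held an odd-pool region in their span, while 6.42% of all protein-coding genes did. Of the 21 regions, 5 also lay within 5000 bp before a 5' start (23.8%, 10.6 to 45.1). An even-pool region overlapped 0 of the 21 regions (Wilson interval 0 to 15.5%). Over all odd-pool regions the share was 6.96%, which lies within that interval.

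Overlap with the even pool was a measure the rule had not used. Of the 344 regions outside genes, 32 overlapped an even-pool region by at least 1 bp (9.30%, 6.67 to 12.8). In genes the share was 6.50% (5.45 to 7.75), and the difference of 2.80 percentage points had an interval of -0.118 to 6.49, which includes 0. Among regions whose median 31-mer occurred 1 time in mm9, 9 of 177 regions outside genes overlapped (5.08%, 2.70 to 9.38). In genes 93 of 1582 did (5.88%, 4.82 to 7.15). The difference was -0.794 percentage points (-3.50 to 3.63), and its interval also includes 0. Being counted 1 time does not exclude related sequence elsewhere: the chromosome 6 region in this subset matched chromosome 17 at 96.8% identity. By class, over all 344 regions, the share was 11.9% in spliced copies (7.20 to 18.9) and 7.27% in low-complexity regions (3.73 to 13.7). It was 0% past a 3' end (0 to 15.5) and 10.5% in the remaining regions (5.82 to 18.3). These intervals overlap. The median score outside genes was 5 and in genes 6, and the share of regions with a score of at least 10 was 14.5% outside genes and 20.5% in genes (difference -5.94 percentage points, interval -9.80 to -1.44).

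**Figure D4:**
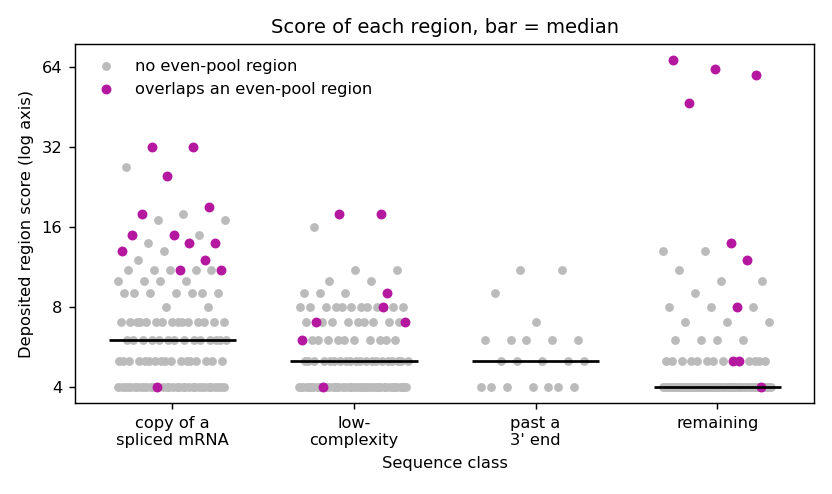
Deposited score of each odd-pool region outside protein-coding genes (y axis, log) by sequence class (x axis), with the median as a bar and regions that overlap an even-pool region in purple. The 4 highest scores, from 47 to 68, are the H19 and chromosome 17 regions among the remaining regions, and all 4 overlap an even-pool region.

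By position on the genome, the regions outside genes were spread over all autosomes and X, with 7 to 29 on each chromosome and 0 on Y. Bases outside protein-coding spans make up 61.2% of the known sequence of chromosomes 1 to 19 and X, whereas 16.3% of odd-pool regions lay there. In the even pool, 104 of 345 regions did (30.1%, 25.5 to 35.2), and the odd-pool share was lower by 13.9 percentage points (difference -13.9, interval -19.1 to -8.97). Pseudogenes made up 22.4% of the odd-pool regions outside genes (18.3 to 27.1) and 8.65% of the even-pool ones (4.62 to 15.6).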

How the data were processed

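Per the study's methods, the authors kept uniquely mapped reads (Bowtie2, mm9) and used MACS2 as peak caller, with versions not given in the sources used here. The list nevertheless holds highly repeated sequence, such as chr10:91850902-91851155, whose median 31-mer occurs 1094330 times in mm9. How reads were placed in such regions was not tested. The deposited list of each pool, made by the authors, gives a chromosome, start, end and score, all regions 254 bp (odd) or 248 bp (even) long. Starts were read as 0-based and are printed 1-based. Types came from GENCODE M1. 31-mers were counted in mm9 on both strands, and regions were searched against GENCODE M1 protein-coding transcripts with megablast (BLAST+ 2.17.0) without a low-complexity filter. Probe sequences came from the study's oligo list. Gene names followed a rule: the 8 highest scores of each type, the 8 highest even-pool scores among overlapping regions, and 16 noncoding or repeat genes; others were named after their values were seen. Members and lists were chosen with earlier results of these data known. No test was made, since each pool is 1 library. Counting functions were tested on simulated data. Alternatives are given in the closing section. Python 3.11.15, numpy 2.4.6, pandas 2.3.3 and scipy 1.17.1 were used.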

Additional observations from a re-analysis of the deposited data

How the results depend on the processing

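Each pool is 1 library, so no replicate could be left out. No paired analysis was possible because no result comes from a test. Of 39 alternatives, 21 stayed within the 95% interval of the reported value and 18 left it. The share of odd-pool regions outside genes (16.3%) was 25.9% when introns counted as outside, 13.0% with spans lengthened by 5000 bp, 13.4% without the lowest score and 30.1% in the even pool. Without the lowest score, pseudogenes made up 27.9% and no gene 64.7% of the regions, spliced copies 42.3%, the remaining class 18.4%, and 14.4% overlapped an even-pool region. Among regions whose median 31-mer occurs 1 time, 5.08% overlapped an even-pool region and 35.6% matched a transcript (54.7% in all regions). The transcript match fell to 35.8% with the low-complexity filter and 32.3% at 95% identity over 200 bp. Repeated sequence (48.5%) was 19.5% at 10 copies or more and 28.2% with 50-mers. Within 10000 bp past a 3' end lay 18.6% of regions. With low-complexity counted from 30% of the bases, a limit chosen after seeing the data, that class held 43.3% and the remaining class 16.9%. The cause of these shifts was not tested beyond the construction of each alternative. Tandem-run shares stayed within their intervals under runs of 24 bases and without the lowest score, both chosen after seeing the data. Depth is unknown, so absence from a list cannot be read as absence of signal.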
